A study of Saccharomyces cerevisiae with 20 samples.

Results

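The pentose phosphate pathway genes of budding yeast are described here through the chromatin they carry before, during and after salt stress. They are the 10 genes ZWF1 (YNL241C), SOL3 (YHR163W), SOL4 (YGR248W), GND1 (YHR183W), GND2 (YGR256W), RKI1 (YOR095C), RPE1 (YJL121C), TKL1 (YPR074C), TKL2 (YBR117C) and TAL1 (YLR354C), which encode the enzymes of the pathway, out of 5985 nuclear protein-coding genes analysed and 6685 ORFs listed. All 10 had values for every antibody in every sample. The group was chosen by its enzymes and selected on 1 measured value, a gain of H3K18ac at ZWF1 between samples A and B, and this gain is therefore given as a description only.

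The pentose phosphate pathway branches off glycolysis at glucose 6-phosphate. Its oxidative branch, formed by glucose-6-phosphate dehydrogenase, 6-phosphogluconolactonase and 6-phosphogluconate dehydrogenase, reduces NADP to NADPH, which yeast cells use for biosynthesis and against oxidants. Its non-oxidative branch supplies ribose 5-phosphate for nucleotides and returns carbon to glycolysis through transketolase and transaldolase. Several steps are encoded by a pair of paralogs in budding yeast, of which SOL3, GND1, TKL1 and TAL1 are the main forms and SOL4, GND2, TKL2 and NQM1 the minor ones.

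Cells carrying myc-tagged Gcn5, of genetic background BQS1350 in the labels and of BY4742 background in the methods, were followed through 1 cycle of stress and recovery. Sample A was taken during normal growth in YPD, a rich glucose medium. Sample B was taken 1 h after the cells were diluted into fresh YPD with KCl, 1 M in the final medium, and sample C after they had adapted to it. Sample D was taken 1 h after the cells were pelleted and diluted into fresh YPD without KCl, and sample E after recovery. Both steps thus combined the change in KCl with dilution into fresh medium. All 5 samples carry the tagged Gcn5, and no untagged strain was analysed here. In each sample ChIP-chip, in which precipitated DNA is hybridised to a tiling array, measured 4 targets relative to input DNA. These were Gcn5, a histone acetyltransferase, the acetylation marks H3K18ac and H4K16ac, which are both found at active genes, and histone H3, a measure of nucleosome density. The methods give the same catalogue number for the H3K18ac and the H3 antibody, while the labels give it for H3K18ac only.

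There was 1 file for each of the 4 antibodies and 5 samples. The 2 cultures described in the methods are not kept apart in the files, so that no value has a replicate error and no test between samples could be run. The values are log-scale signals in arbitrary units whose base is not stated, and differences between samples are therefore given on that scale and not as folds. A level is the mean over the 9 bins of the 5′IGR, the gene's own side of the intergenic region before it, up to the midpoint, over the 8 central bins of the ORF, or over the 9 bins of the 3′IGR, the matching side of the intergenic region behind it. A change past 0.2 is called a rise or a fall, and each count of genes is set beside the share of all 5985 genes past the same limit. Gcn5 of sample B stood apart from the other Gcn5 samples across the genome, being the highest of the 5 in 40.1% of all 5′IGRs, 42.0% of ORFs and 56.8% of 3′IGRs. It was the lowest of the 5 in 24.1%, 21.9% and 12.9% in the same order. In each file 1 value occurred far more often than any other and made up between 0.359% and 1.21% of the values. Of the 380 bins of the 10 genes, between 3 and 9 per file held that value, and over all files most of these lay in the 3′IGR of TKL2.

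After 1 h in KCl the 10 genes did not move together. H3K18ac rose in the 5′IGR of SOL4, GND2 and TKL2 and fell in that of SOL3 and TAL1, while it rose in the ORF of ZWF1 and TKL1 and fell in that of RKI1. The 3 rises of 10 in the 5′IGR stood beside 13.1% of all genes and the 2 falls beside 22.4%. In the ORF, the 2 rises stood beside 11.2% of all genes and the 1 fall beside 6.37%. The rise of ZWF1 is the value the group was selected on, so this count of rises is a description only. The median change of the 10 genes was -0.0172 in the 5′IGR against -0.0511 over all genes, and -0.00448 in the ORF against 0.0261 over all genes. The ORF change of RKI1 was -0.195 with the median over bins. No member passed 0.2 in both regions, and the share of all genes that did was not computed, so this is a description only.

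**Figure D1:**
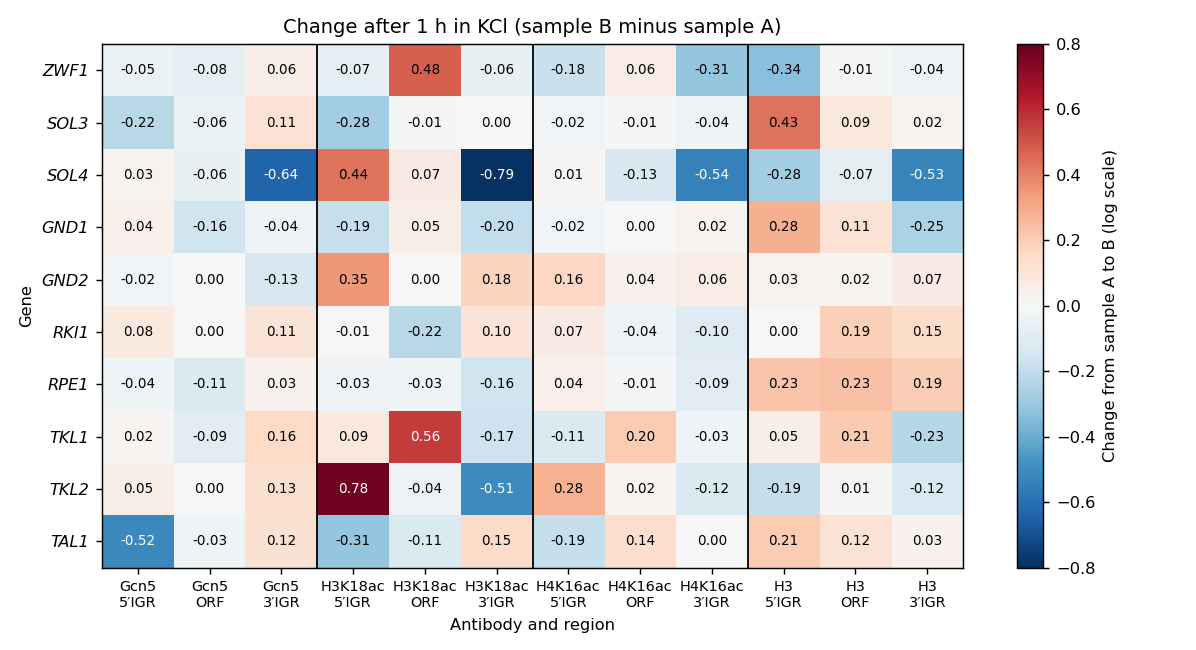
Change between samples A and B for the 10 pentose phosphate pathway genes (rows) with each antibody in the 5′IGR, the ORF and the 3′IGR (columns), in units of the deposited log scale. Red is higher and blue lower in sample B, and the H3K18ac columns show the rise of TKL2 (0.78), SOL4 (0.44) and GND2 (0.35) in the 5′IGR and of TKL1 (0.56) and ZWF1 (0.48) in the ORF.

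**Figure D2:**
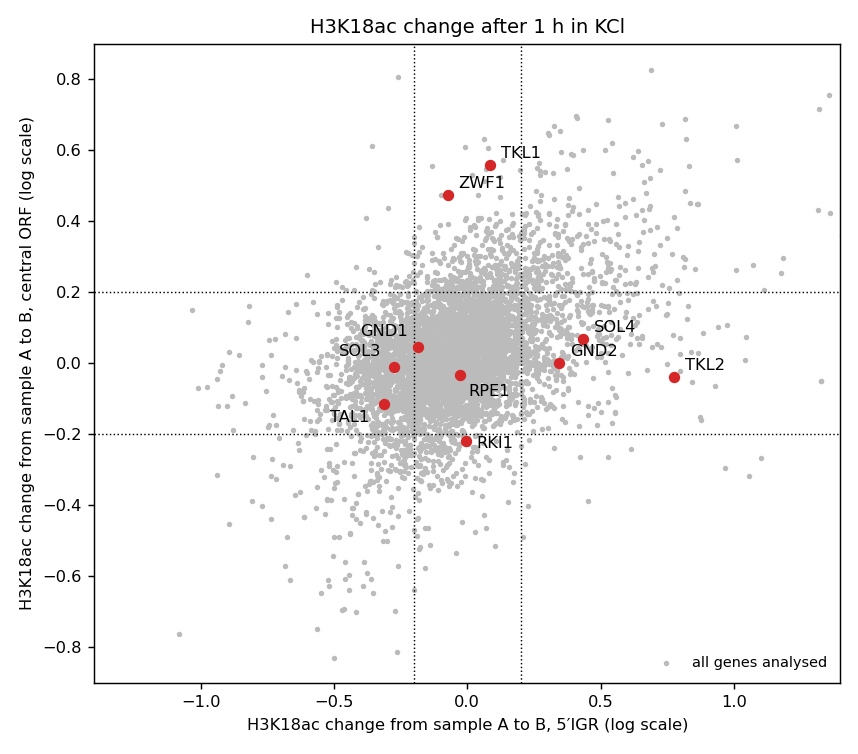
H3K18ac change between samples A and B in the 5′IGR (horizontal) and in the central ORF (vertical), on the log scale, for all genes analysed (grey) and the 10 members (red). Dotted lines mark changes of 0.2 in either direction, and 8 genes lie outside the axes.

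ZWF1 encodes glucose-6-phosphate dehydrogenase, the first enzyme of the pathway, and has an ORF of 1518 bp. In its ORF, H3K18ac measured 0.794 in sample A, 1.27 in B, 0.629 in C, 1.08 in D and 0.742 in E. Both samples taken 1 h after a change of medium, B and D, were thus above A, C and E. The change from A to B was 0.475, larger than in 99.0% of all genes, and that from C to D was 0.450. The group was selected on the change from A to B, so its size and rank are a description only. In the plot of H3K18ac along the genes the gain in ZWF1 covered most of the ORF, with sample B highest in 18 of 20 bins and above A by more than 0.2 in 16. The largest difference was in the 8th ORF bin, where the level was 1.33 in sample A and 2.02 in B. Leaving out the bins at the most frequent value changed the level of ZWF1 in sample C to 0.679 and in E to 0.809, which kept both below B and D.

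In the 5′IGR of ZWF1 H3K18ac was already high in normal growth. It measured 2.00 in sample A, 1.93 in B, 1.76 in C, 1.96 in D and 1.81 in E, and the level in A exceeded that of 99.9% of all genes. The change from A to B was -0.0727, short of 0.2. Without H3 subtraction, the gain for which the group was picked was thus found in the ORF and not in the 5′IGR. H3 in this 5′IGR fell by 0.335 from A to B, with levels of -0.290 in A, -0.625 in B, -0.372 in C, -0.459 in D and -0.895 in E. Sample E, and not sample B, was the lowest, and a fall of H3 past 0.2 from A to B was found in 8.62% of all 5′IGRs. Against the mean of A and E the H3 change of ZWF1 was -0.0327, and it passed 0.2 in 7 of 8 settings. Within the 5′IGR the fall was largest in the third bin, from 0.291 to -0.977.

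For ZWF1 the methods also list a ChIP-qPCR primer pair, which is shown because ZWF1 is the pathway gene assayed there. The pair is listed among control genes, which the methods say were picked from the array data as genes whose Gcn5 was not thought to change. Each primer is 21 nt long and is written 5′ to 3′, its place in the gene was not looked up, and no qPCR value is used here.
ZWF1 forward: acgaattaagaacgcagatcg
ZWF1 reverse: ctctttacccaagtaatggtc

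SOL3 and SOL4 encode 6-phosphogluconolactonases, which open the lactone made by ZWF1. Their 5′IGRs moved in opposite directions. SOL3 measured 1.31 for H3K18ac in sample A, 1.03 in B, 1.23 in C, 1.37 in D and 1.26 in E, a fall of 0.276 to the lowest of the 5 values. SOL4 measured 0.527 in A, 0.963 in B, 0.326 in C, 0.679 in D and 0.705 in E, a rise by 0.435 to the highest. The rise of SOL4 was larger than that of 95.8% of all genes and was gone in adapted cells, where the level was below that of sample A.

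H3 of the 2 lactonase genes moved the other way from H3K18ac. In the 5′IGR of SOL3, H3 measured -0.810 in sample A, -0.377 in B, -0.538 in C, -0.737 in D and -0.733 in E, a rise by 0.434 that exceeded 97.2% of all genes. H3 of SOL3 was higher by more than 0.2 in 7 of the 9 bins, and the difference was largest in the sixth, with -2.73 in A and -1.10 in B. In the 5′IGR of SOL4, H3 measured 0.164 in A, -0.111 in B, 0.136 in C, 0.218 in D and 0.208 in E, so that sample B lay below all others. In SOL4 too the sixth bin changed most, from -1.29 to -2.49, while H3K18ac of the bin before it went from 0.133 to 1.20. The H3 fall of SOL4 was -0.107 to -0.635 over the alternative settings and missed 0.2 in 1 of 8.

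GND1 and GND2 encode 6-phosphogluconate dehydrogenase, the second NADPH-producing enzyme. In the 5′IGR of GND2, H3K18ac measured -0.146 in sample A, 0.20 in B, -0.146 in C, -0.0869 in D and -0.162 in E. Only sample B was above 0, and its rise by 0.345 was larger than in 93.7% of all genes. GND1 measured 0.386 in A, 0.201 in B, 0.182 in C, 0.419 in D and 0.372 in E. The 2 KCl samples of GND1 lay below A, D and E, an order found in 16.1% of all 5′IGRs and also in SOL3 and TAL1. The change of GND1 from A to B, -0.185, did not pass 0.2. H3 in the 5′IGR of GND1 rose by 0.283, from -0.146 in A to 0.137 in B, and was -0.0466 in C, 0.00690 in D and -0.110 in E. This rise was 0.0171 with the median over bins in place of the mean, and passed 0.2 in 7 of 8 settings. H3 of GND2 changed by 0.0287. In the ORFs, neither gene passed 0.2 for H3K18ac, with changes of 0.0475 for GND1 and 0.000499 for GND2.

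RKI1 and RPE1 encode the isomerase and the epimerase that interconvert the pentose phosphates, and both are single-copy genes. Their H3K18ac changed less at 1 h of stress than around adaptation. RKI1 measured 0.317 in the 5′IGR in sample A, 0.311 in B, 0.882 in C, -0.132 in D and 0.379 in E, and 0.379, 0.160, 0.817, 0.0482 and 0.457 in the ORF in the same order. RPE1 measured 0.484, 0.455, 0.609, 0.414 and 0.540 in the 5′IGR and 0.742, 0.711, 0.903, 0.606 and 0.805 in the ORF. In both genes and both regions sample C was the highest and sample D the lowest of the 5, an order found in 5.16% of all 5′IGRs and 5.65% of all ORFs. From C to D the level of RKI1 fell by 1.01 in the 5′IGR and by 0.769 in the ORF. That of RPE1 fell by 0.298 in the ORF, and its change in the 5′IGR was -0.196.

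H4K16ac of RKI1 followed the same order, with -0.0616 in sample A, 0.00395 in B, 0.192 in C, -0.333 in D and -0.00535 in E in the 5′IGR, an order found in 7.18% of all 5′IGRs. H3 of RKI1 did not, with -0.330 in sample C and -0.246 in D, its highest. RKI1 and the divergent ribosomal protein gene RPS7A lie on either side of 1 intergenic region, in which each has its own 5′IGR. H3K18ac in the 5′IGR of RPS7A was 0.376 in sample A, 0.147 in B, 0.616 in C, 0.180 in D and 0.594 in E. Sample C was the highest there too, while B and not D was the lowest.

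**Figure D3:**
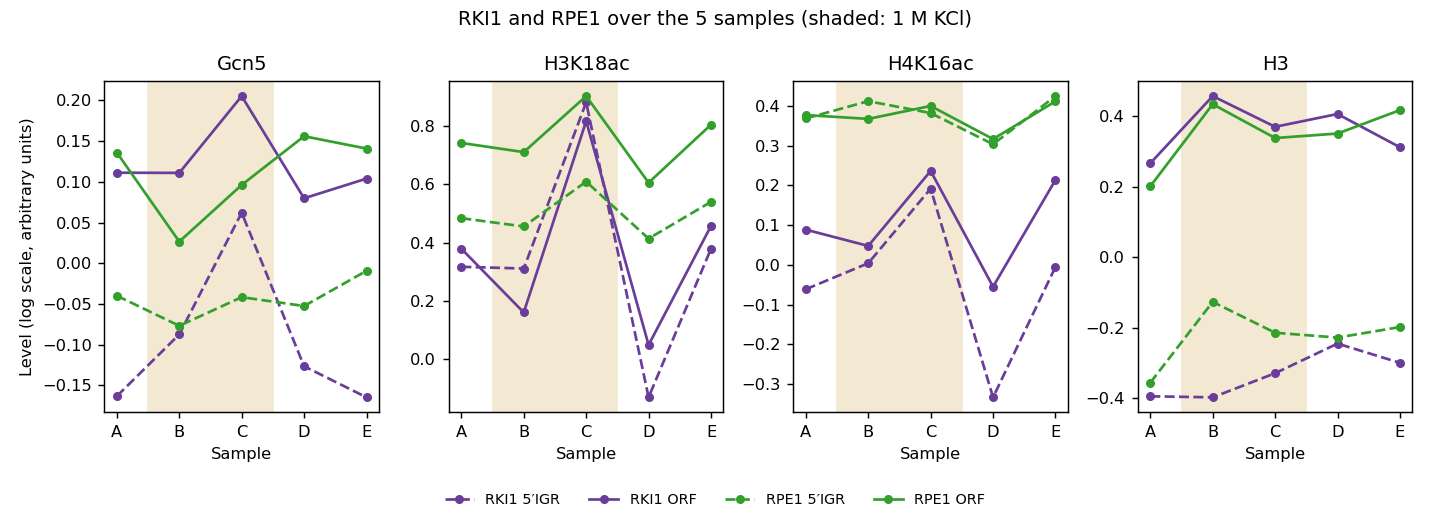
Levels of RKI1 (purple) and RPE1 (green) in samples A to E for each antibody, on the log scale, with the 5′IGR as dashed and the ORF as solid lines and the 2 KCl samples shaded. H3K18ac of both genes peaks in sample C and is lowest in sample D, reaching 0.88 and -0.13 in the 5′IGR of RKI1.

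TKL1 and TKL2 encode transketolase, which moves 2-carbon units between sugar phosphates. TKL1 gained H3K18ac in its ORF of 2043 bp, with -0.0436 in sample A, 0.515 in B, -0.0929 in C, 0.149 in D and -0.00187 in E. Its rise by 0.559 exceeded that of 99.4% of all genes. Sample B was the highest in 20 of 20 ORF bins, 17 of them by more than 0.2 over A, and the largest difference lay in the 11th bin, from -0.235 to 0.516. ZWF1 and TKL1 were the 2 members with both B and D above A, C and E in the ORF, an order found in 16.7% of all genes. The gain of ZWF1 in B was the ground for selecting the group, so this count is a description only. The 5′IGR of TKL1 changed little, with 0.824 in A, 0.910 in B, 0.833 in C, 0.983 in D and 0.936 in E. H3 in the ORF of TKL1 also rose, by 0.208 from 0.507 to 0.714.

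TKL2 showed the largest 5′IGR change of H3K18ac from A to B among the 10 genes. H3K18ac measured -0.414 in sample A, 0.362 in B, 0.203 in C, -0.265 in D and -0.277 in E. The KCl samples B and C were both above the samples without KCl, an order found in 6.98% of all genes. The rise by 0.776 was larger than in 99.1% of all genes, and sample B was the highest in 9 of 9 bins. H4K16ac in the same 5′IGR rose by 0.278, from -0.615 to -0.337, and H3 went from 0.105 to -0.0847, a change of -0.189 that did not pass 0.2. The rise of H3K18ac reached into the start of the ORF, where the fourth bin went from -0.0903 to 1.20. Later ORF bins lost it, and over the 20 bins 7 were higher and 8 lower by more than 0.2, so that the central ORF changed by -0.0383. The other side of this intergenic region is the 5′IGR of the divergent gene TEF2, which encodes translation elongation factor EF-1α and was at -0.00464 for H3K18ac in sample A, 0.164 in B, -0.530 in C, -0.356 in D and -0.177 in E. TEF2 thus had its lowest value in sample C, where TKL2 was still raised.

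**Figure D4:**
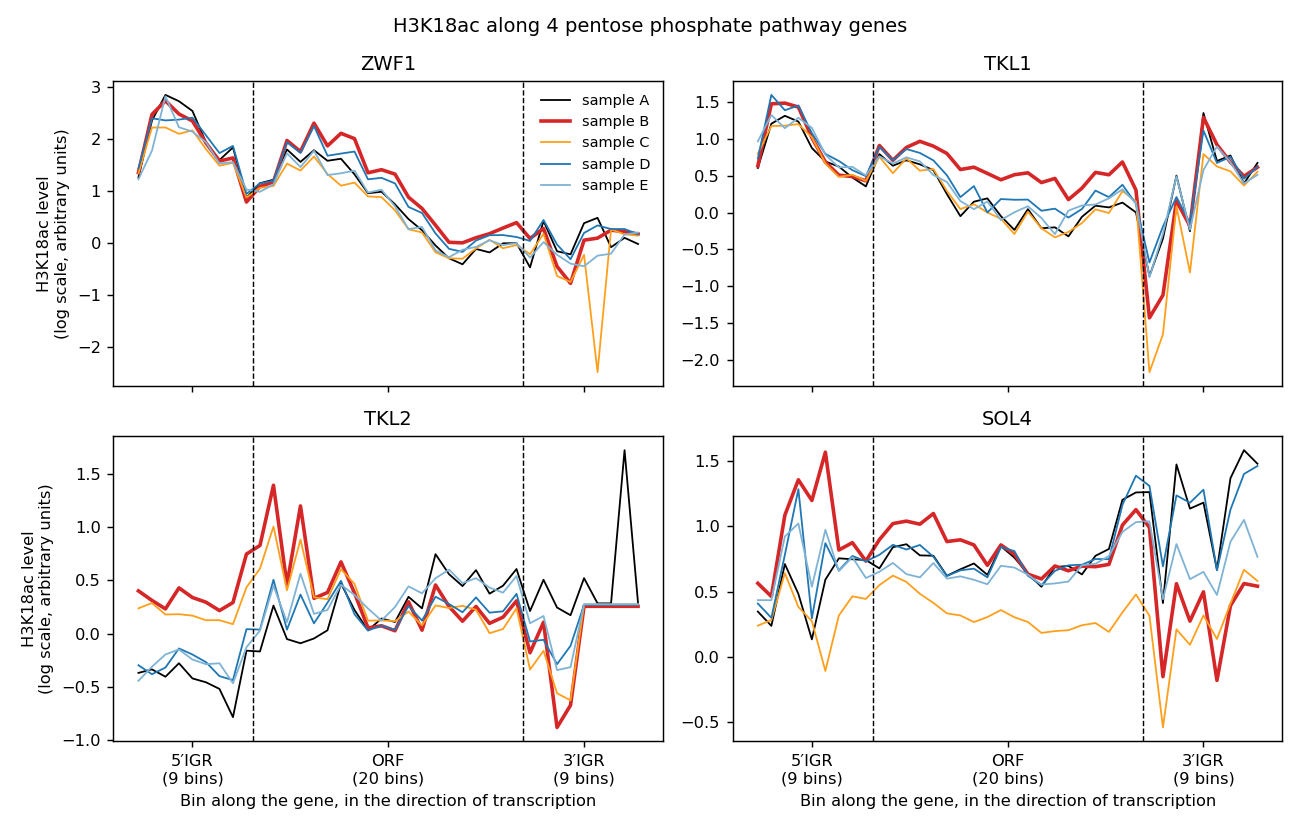
H3K18ac along ZWF1, TKL1, TKL2 and SOL4 in the 9 bins of the 5′IGR, the 20 bins of the ORF and the 9 bins of the 3′IGR (horizontal, divided by dashed lines), on the log scale, in samples A to E. Sample B (thick red) lies above A along the ORF of ZWF1 and TKL1 and along the 5′IGR of TKL2 and SOL4, and the flat end of the TKL2 line is made of bins at the most frequent value of each file.

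TAL1 encodes transaldolase, which moves 3-carbon units and has an ORF of 1008 bp. In its 5′IGR H3K18ac measured 1.07 in sample A, 0.763 in B, 0.866 in C, 1.22 in D and 1.01 in E, a fall of 0.311 to the lowest value. In the ORF of TAL1 H3K18ac was 1.15 in sample A, 1.04 in B, 1.07 in C, 1.26 in D and 1.10 in E, and no change from A passed 0.2. Its paralog NQM1, which is not among the 10 genes, measured 0.320 in A, 0.680 in B, 0.268 in C, 0.419 in D and 0.378 in E in the 5′IGR, and rose by 0.360 there and by 0.374 in the ORF.

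The 4 paralog pairs shared a pattern in the 5′IGR. In sample A the minor form carried less H3K18ac than the main form in every pair, and in sample B the difference was nearly closed in 3 of them. SOL4 minus SOL3 was -0.783 in sample A, -0.0715 in B, -0.907 in C, -0.687 in D and -0.559 in E. GND2 minus GND1 was -0.532, -0.00161, -0.327, -0.506 and -0.534 in the same order. NQM1 minus TAL1 was -0.754, -0.0829, -0.598, -0.797 and -0.631. For TKL2 minus TKL1 the differences were -1.24, -0.548, -0.630, -1.25 and -1.21, so that about the same difference was left in B and C. In each of the 4 pairs the difference was highest in sample B, by a change from A of 0.712 for SOL4 and SOL3, 0.530 for GND2 and GND1, 0.689 for TKL2 and TKL1, and 0.671 for NQM1 and TAL1. The ORF did not share the pattern. There the differences in sample A were 0.122, 0.204, 0.331 and -0.828 in the same order of pairs. Their changes from A to B were 0.0774, -0.0470, -0.597 and 0.488. How often other pairs of genes show the 5′IGR pattern was not examined.

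SOL4 rose and SOL3 fell in the 5′IGR, and NQM1 rose and TAL1 fell there. In the other pairs GND2 changed by 0.345 and GND1 by -0.185, and TKL2 by 0.776 and TKL1 by 0.0862. Changes also varied with the starting level across all genes. Of the 1497 genes in the lowest 25% by 5′IGR H3K18ac in sample A, which holds GND2 and TKL2, 26.5% rose, and of the 1496 in the highest 25%, which holds ZWF1, SOL3 and TAL1, 29.8% fell. SOL4, which rose, lay in the third 25% by level, where 7.42% of genes rose and 22.1% fell. The H3 difference of the pairs went the other way in each case, by -0.709 for SOL4 minus SOL3, -0.254 for GND2 minus GND1, -0.244 for TKL2 minus TKL1 and -0.284 for NQM1 minus TAL1.

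**Figure D5:**
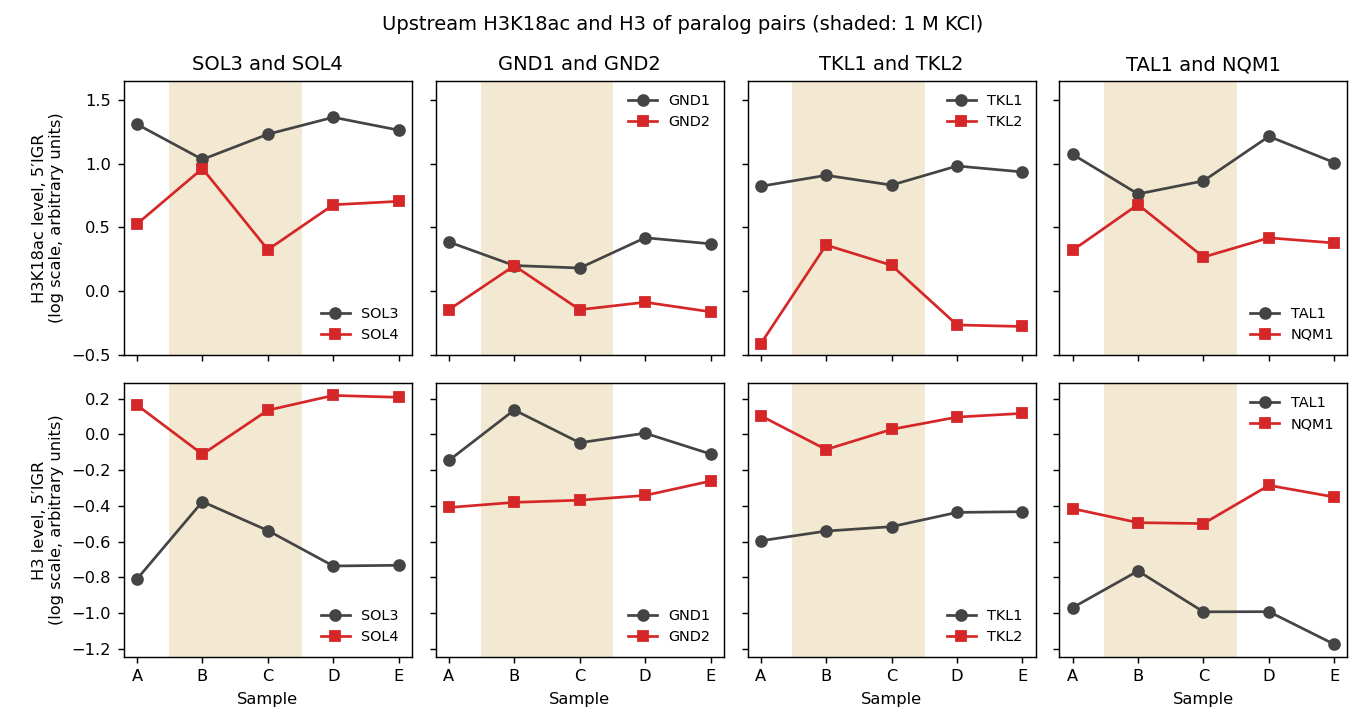
5′IGR levels of H3K18ac (top) and H3 (bottom), on the log scale, in samples A to E for the main form (grey circles) and the minor form (red squares) of 4 paralog pairs, with the 2 KCl samples shaded. In sample B the H3K18ac lines of SOL3 and SOL4, of GND1 and GND2 and of TAL1 and NQM1 come within 0.09 of each other.

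Histone H3 in the 5′IGR rose from A to B in SOL3, GND1, RPE1 and TAL1 and fell in ZWF1 and SOL4. The 4 rises of 10 stood beside 16.4% of all genes and the 2 falls beside 8.62%. RPE1 measured -0.357 in sample A, -0.127 in B, -0.215 in C, -0.228 in D and -0.198 in E, with sample B the highest, and its rise passed 0.2 in 6 of 8 settings. The rise of TAL1, by 0.206 from -0.970 to -0.765, passed 0.2 in 4 of 8 settings only. In the ORF, H3 of sample B was the highest of the 5 in 7 of the 10 genes, against 28.9% of all genes. It was the lowest in ZWF1 and SOL4, against 21.3% of all genes. The sizes were small in the ORF, and only RPE1 (0.233, past 0.2 in 5 of 8 settings) and TKL1 (0.208, in 4 of 8) passed 0.2. Across all genes 5.88% rose and 5.75% fell there. H3 was lower in the 5′IGR than in the ORF of all 10 genes in every sample, as in 86.2% to 87.7% of all genes.

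In the 5′IGR, H3K18ac and H3 changed in opposite directions in 6 of the 10 genes, whatever the size. This was near the share of all genes. In SOL4 and TKL2 H3K18ac was higher and H3 lower in sample B, which held for 17.0% of all genes. In SOL3, GND1, RPE1 and TAL1 H3K18ac was lower and H3 higher, which held for 39%. When the H3 value of the same bin was subtracted, the change in the 5′IGR was therefore larger for these genes, with 0.965 for TKL2, 0.711 for SOL4, -0.710 for SOL3, -0.517 for TAL1, -0.468 for GND1 and -0.258 for RPE1. For ZWF1 the H3-corrected level in the 5′IGR went from 2.29 to 2.56, a rise by 0.263 that passed 0.2. Sample E was higher still, at 2.71. In the ORF the H3-corrected changes were 0.486 for ZWF1, 0.351 for TKL1 and -0.410 for RKI1.

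Gcn5, an enzyme that acetylates H3K18, did not rise by 0.2 in the 5′IGR or the ORF of any of the 10 genes from A to B without H3 subtraction. In the 5′IGR, 0 rises stood beside 16.8% of all genes, and 2 falls, in SOL3 and TAL1, beside 7.75%. TAL1 measured -0.102 in sample A, -0.621 in B, -0.238 in C, 0.0462 in D and -0.0819 in E, and its fall of 0.518 was exceeded by few genes, at percentile 1.14 of the changes. SOL3 measured 0.163, -0.0602, 0.129, 0.250 and 0.167, and sample B was the lowest in both genes. The Gcn5 falls depended on the setting, with a range of -0.119 to -0.724 for TAL1 and of -0.0258 to -0.656 for SOL3. In TAL1 and SOL3 Gcn5 and H3K18ac thus both fell in the 5′IGR.

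Where H3K18ac rose, Gcn5 without H3 subtraction did not change by 0.2. In the 5′IGR, Gcn5 changed by 0.0269 in SOL4, -0.0230 in GND2 and 0.0510 in TKL2. In the ORF it changed by -0.0778 in ZWF1 and -0.0912 in TKL1. ZWF1 carried much Gcn5 throughout, with 0.647 in sample A, 0.596 in B, 0.770 in C, 0.613 in D and 0.638 in E in the 5′IGR, and its level in A was above that of 97.9% of all genes. Without H3 subtraction none of the 10 ORFs passed 0.2 for Gcn5 in either direction, beside 5.41% of all genes that rose and 3.64% that fell.

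With H3 of the same bin subtracted, Gcn5 passed 0.2 in more of the genes. In the 5′IGR it rose in ZWF1 (0.284), SOL4 (0.302) and TKL2 (0.240), 3 of 10 beside 20.1% of all genes. It fell there in SOL3 (-0.656), TAL1 (-0.724), RPE1 (-0.267) and GND1 (-0.239), 4 of 10 beside 19.2%. In the ORF 0 rose, beside 11.5%, and GND1 (-0.275), RPE1 (-0.343) and TKL1 (-0.299) fell, 3 of 10 beside 11.5%. Of the genes whose H3K18ac rose in the same region, SOL4 and TKL2 thus rose in H3-corrected Gcn5, TKL1 fell, and GND2 (-0.0518) and ZWF1 in the ORF (-0.0666) did not pass 0.2. Most of the rise in SOL4 and TKL2 came from the subtracted H3, which changed by -0.275 and -0.189. Gcn5 itself changed by 0.0269 and 0.0510 there. In ZWF1 and GND1 Gcn5 itself moved the other way in the 5′IGR, by -0.0509 and 0.0434.

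H4K16ac changed less. In the 5′IGR TKL2 alone of the 10 genes passed 0.2, beside 4.86% of all genes that rose and 8.94% that fell. TKL1 alone passed it in the ORF, beside 5.90% that rose and 2.96% that fell. The rise of TKL2 was 0.197 against the mean of A and E, and that of TKL1 was -0.00526 with H3 subtracted and passed 0.2 in 5 of 9 settings. In the ORF of TKL1 H4K16ac was low, with -0.909 in sample A, -0.707 in B, -0.374 in C, -0.710 in D and -0.896 in E. Its highest value was thus in adapted cells, where H3K18ac of the same ORF was back at the level of sample A. H4K16ac of ZWF1 in the ORF was 0.168 in A, the lowest, and between 0.230 and 0.335 in the other samples.

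In the 3′IGR the largest changes from A to B were at SOL4. H3K18ac measured 1.17 in sample A, 0.387 in B, 0.243 in C, 1.15 in D and 0.752 in E, a fall of 0.788. Gcn5 fell from 1.61 to 0.969, H4K16ac from 0.109 to -0.433 and H3 from -0.980 to -1.51. All 4 targets were thus lower in sample B behind SOL4. With H3 subtracted, the change was -0.111 for Gcn5, -0.0157 for H4K16ac and -0.261 for H3K18ac. The other side of this intergenic region is the 5′IGR of MGA1, the next gene in the same direction, which encodes a protein resembling heat shock transcription factor and carried Gcn5 there at 1.08 in A and 0.984 in B. TKL2 had the only other H3K18ac fall past 0.2, by 0.507, and 2 falls of 10 stood beside 17.6% of all genes. GND1 changed by -0.199 there, and by -0.220 without bins at the most frequent value, which then gave 3 falls. In TKL2, 3 of the 9 bins in sample A and 5 in sample B were at the most frequent value, and the change was -0.968 without such bins and -0.0274 with the median over bins. H4K16ac in the 3′IGR of ZWF1 went from 0.922 to 0.612.

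From B to C, H3K18ac in the ORF fell by 0.641 in ZWF1, by 0.608 in TKL1 and by 0.479 in SOL4, and in the 5′IGR it fell by 0.637 in SOL4 and by 0.345 in GND2. The 3 falls of 10 in the ORF stood beside 13.0% of all genes, and the 2 in the 5′IGR beside 18.5%. RKI1 was the only gene to rise, by 0.571 in the 5′IGR and 0.657 in the ORF, beside 19.7% and 6.90% of all genes. When KCl was removed, from C to D, ZWF1, SOL4, GND1 and TAL1 rose in the 5′IGR, by 0.203, 0.353, 0.238 and 0.350, beside 20.8% of all genes. TKL2 and RKI1 fell there, beside 13.7%. In the ORF, ZWF1, SOL4 and TKL1 rose, by 0.450, 0.404 and 0.242, beside 8.71%, and RKI1 and RPE1 fell, beside 7.25%.

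After recovery H3K18ac of the 5′IGR and the ORF was within 0.2 of its starting level. From A to E 0 of the 10 genes passed 0.2 in the 5′IGR, where 3.26% of all genes rose and 12% fell, or in the ORF, where 2.56% rose and 3.68% fell, and the changes ran from -0.192 in ZWF1 to 0.178 in SOL4 in the 5′IGR. In the 3′IGR it was lower in E than in A in SOL4 (-0.423), TKL2 (-0.360) and ZWF1 (-0.207), 3 of 10 beside 16.4% of all genes. H3 in the 5′IGR was lower in E than in A by 0.605 in ZWF1 and by 0.205 in TAL1, 2 of 10 beside 8.25% of all genes.

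Another 18 genes of connected metabolism were set beside the 10. The list was chosen with earlier results of these data known, so its counts and median are a description only. From A to B H3K18ac in their 5′IGR rose in 6, beside 13.1% of all genes, and fell in 5, beside 22.4%. The 6 were NQM1, SOL1 (0.336), a paralog of SOL3, IDP2 (0.465), cytosolic NADP-dependent isocitrate dehydrogenase, and 3 genes of pentose and pentitol use, the xylulokinase gene XKS1 (0.330), the xylitol dehydrogenase gene XYL2 (0.464) and the aldose reductase gene GRE3 (0.341). The 5 that fell were SHB17 (-0.267), a sedoheptulose bisphosphatase, the phosphoribosyl pyrophosphate synthetase genes PRS3 (-0.456) and PRS4 (-0.483), ALD6 (-0.236), a cytosolic aldehyde dehydrogenase that makes NADPH, and PGI1 (-0.249), phosphoglucose isomerase. In the ORF 7 rose and 0 fell, beside 11.2% and 6.37% of all genes, and the median change was 0.123 against 0.0261. These 7 were NQM1, SOL1, SOL2, XYL2, GRE3, PRS1 and YDR248C, a putative gluconokinase, with rises between 0.20 and 0.374.

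ALD6 had the largest changes of the 18 in other targets. H4K16ac in its 5′IGR measured 0.0714 in sample A, -0.660 in B, -0.489 in C, -0.336 in D and -0.190 in E, a fall of 0.731. H3 there fell by 0.666, from -0.642 to -1.31. STB5, which encodes a transcription factor of pathway genes, changed by -0.0579 in the 5′IGR and by -0.104 in the ORF for H3K18ac.

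ZWF1 was used as a reference for genes of similar course over its 60 values, 4 antibodies in 3 regions and 5 samples, each antibody and region centred over the samples. The 5 genes with the highest Pearson correlation were SMA1 (0.637), POR1 (0.617), VHR1 (0.607), KGD4 (0.599) and YIR016W (0.594). Among the other 9 members TKL1 (0.520) and SOL4 (0.417) were the closest. The 60 values include the ORF H3K18ac gain the group was selected on. That change was 0.197 (SMA1) to 0.545 (YIR016W) in the 5 genes, 0.559 in TKL1 and 0.0680 in SOL4. H3 in the 5′IGR changed by -0.335 in ZWF1, but by -0.126 (KGD4) to 0.0145 (VHR1) in the 5 genes. It changed by 0.0546 in TKL1 and -0.275 in SOL4. The share of all genes with correlations this high was not computed. The values of a gene share their 20 files, so the correlations are a description only.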

How the data were processed

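Cultures of 1 strain were measured in 5 samples with 4 antibodies, 20 files in all, grouped by antibody and sample letter from the labels. ChIP and input DNA were hybridised to yeast tiling arrays from Affymetrix (Tiling 1.0R). From these the authors computed a log-scale ChIP signal with Tiling Analysis Software and set the 5 samples to one median, taken over unstated positions. What was deposited is a score, namely this signal averaged by the authors over 38 bins per ORF. The base of the logarithm, the build and the annotation version were not given in the sources used here. Depth does not apply to arrays, and their number limits the precision.

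Of 6685 ORFs, 6 had no values and YJR162C, with an absolute value of 343.2, was left out because it passed 20. Gene names, lengths and neighbours came from the RefSeq table of assembly R64, which named 6006 ORFs, and the 5985 nuclear protein-coding genes were kept. The 5 samples of each antibody were brought to one median, which was 0.131 for H3, -0.0636 for Gcn5, 0.213 for H4K16ac and 0.282 for H3K18ac. The ORF level used the central 40% of bins. Each file held 1 value far more often than any other, 0 in the Gcn5 file of sample A and in the H4K16ac file of sample E, and these bins were kept. Whether near-identical paralog sequences share probes was not examined.

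The members and gene lists were chosen with earlier results of these data known. All 10 members are named, with NQM1, those of 18 related genes past 0.2 from A to B in the 5′IGR or ORF, and the 5 genes most like ZWF1. STB5 and the neighbours RPS7A, TEF2 and MGA1 were added for context. The level and calling functions were checked on simulated data. Alternatives covered normalisation, bins, H3 subtraction, the reference sample, the threshold and the genes included, and 1 more, leaving out bins at the most frequent value, was chosen after seeing the data. Python 3.11.15, numpy 2.4.6, pandas 2.3.3 and matplotlib 3.10.9 were used.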

Additional observations from a re-analysis of the deposited data

How the results depend on the processing

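The counts of H3K18ac rises from A to B, 3 in the 5′IGR and 2 in the ORF, stayed within 1.5 times under every alternative run. The ORF count includes ZWF1, on whose gain the group was selected. The count of 5′IGR H3K18ac falls was 2, and it was 4 with only the 4 bins next to the start codon, 4 with H3 subtracted and 1 at a threshold of 0.3. The count of 5′IGR H3 rises was 4, and it was 2 after quantile normalisation and 1 at a threshold of 0.3. The count of 5′IGR H3 falls was 2, and it was 1 against the mean of A and E and 1 at a threshold of 0.3. A stricter threshold keeps fewer genes by construction, and the cause of the other shifts was not tested. Over all 4 antibodies and 3 regions, of 226 recomputed counts of members 171 stayed within 1.5 times, and of 205 recomputed values for the 28 single changes past 0.2, 166 moved by less than 1 SD of the 4 samples other than B and 2 changed sign. These were H3 in the 3′IGR of TKL1, at 0.158 with the median over bins, and H4K16ac in the ORF of TKL1, at -0.00526 with H3 subtracted. The H3K18ac changes of ZWF1 and TKL1 in the ORF and of GND2, SOL4, TKL2, SOL3 and TAL1 in the 5′IGR passed 0.2 in 9 of 9 settings. For ZWF1 this is the change the group was selected on, and it is a description only. With bins at the most frequent value left out, which was chosen after seeing the data, 1 of the counts moved by over 1.5 times, that of 3′IGR Gcn5 rises, which went from 0 to 1. No paired analysis was possible because each antibody has 1 file per sample and the labels carry no replicate numbers. With 1 value per sample, spread between cultures cannot be told apart from differences between samples.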
